A study of Mus musculus with 4 samples.

Results

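The genes described here encode the enzymes that feed acetyl groups into the tricarboxylic acid (TCA) cycle, turn the cycle, and break down branched-chain amino acids and ketone bodies. They were taken from a list of 39 genes by symbol, and all 39 were found among the 22931 features tested on the arrays. The methylmalonyl-CoA mutase gene listed as Mut carries its current symbol Mmut. All 39 were well above background on all 4 arrays.

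Hearts came from male mice 5 days after the left anterior descending coronary artery was tied off, which causes a myocardial infarction. In the knock-out mice (KO, VE-Cad-Cre-S1pr1 fl/fl), Cre recombinase under the VE-cadherin promoter, which is active in endothelial cells, deletes the floxed gene for the sphingosine 1-phosphate receptor S1pr1. The controls are called wild-type (WT). Whether they carried Cre or floxed alleles, the strain, the age and the part of the heart taken are not given in the sources used here. KO replicates 3 and 4 and WT replicates 1 and 3 were measured on 1 array each. These numbers are the digits after the genotype in the sample titles, which all end in rep1. A digit shared by both genotypes records no pairing. Nothing in the labels tells if the samples were different animals. The p-values then reflect the spread of these samples, which may be technical.

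The TCA cycle oxidises acetyl-CoA in the mitochondrial matrix and passes the electrons to the respiratory chain. Heart muscle is dense in mitochondria and draws its acetyl-CoA from fatty acids, pyruvate, ketone bodies and amino acids. The pyruvate, 2-oxoglutarate and branched-chain dehydrogenase complexes are built alike and share the subunit Dld. A level is the log2 signal of a gene after subtraction of its array's 75th percentile. A difference is the KO mean less the WT mean of such levels, with the standard error (SE) from limma, a linear model fitted over all features. With so few arrays, the precision of all values is limited.

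S1pr1, the targeted gene, had levels of -2.69 and -2.30 on the KO arrays, against 0.43 and 0.95 on the WT arrays. Its difference was -3.19 (SE 0.38, 95% interval -4.19 to -2.18, limma adjusted p = 0.740), and an exact two-sided permutation test gave p = 0.33, the smallest that 2 against 2 arrays allow. WT replicate 1 stood apart in signal: 54.3% of its probes were well above background, against 69.4% to 73.4% on the other arrays. Its negative controls had the largest standard deviation, 15.7 against 1.80 to 5.14. Its 75th percentile was nevertheless the highest, 10.12 in log2 against 9.27 to 9.88. WT replicate 1 also had the weakest correlations with other arrays, down to a Pearson r of 0.882 with KO replicate 4, across features that are not independent replicates. All 4 arrays lay on 1 slide, KO replicates 3 and 4 at positions 2 and 1 and WT replicates 1 and 3 at positions 4 and 3, so slide position and genotype cannot be told apart. List medians, and the differences of genes given array by array, are therefore also given without WT replicate 1, as the KO mean less WT replicate 3. For S1pr1 that value was -3.45.

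All 39 genes had a higher mean in KO than in WT hearts, but for all 39 the arrays of the genotypes overlapped, whereas the genotypes did not overlap for 34.4% of all features. Differences ran from 0.46 for the kinase Bckdk to 2.69 for the ketone body dehydrogenase Bdh1, with a median of 1.37, against a median of 0.07 over all features. At least 2-fold higher means were found for 36 of the 39, where 10.2% of all features reached that fold, and a higher mean of any size was found for 54.8% of all features. No gene passed limma's test: the adjusted p was 0.770 for Bckdk and 0.740 for every other gene, and unadjusted p-values ran from 0.141 for Pcca to 0.420 for Bckdk. Of all features 0% passed at an adjusted p under 0.05, and 2.76% had an unadjusted p under that value (1.41% with a higher mean in KO), among them 0 of the 39. The 95% interval held 0 for each of the 39.

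**Figure D1:**
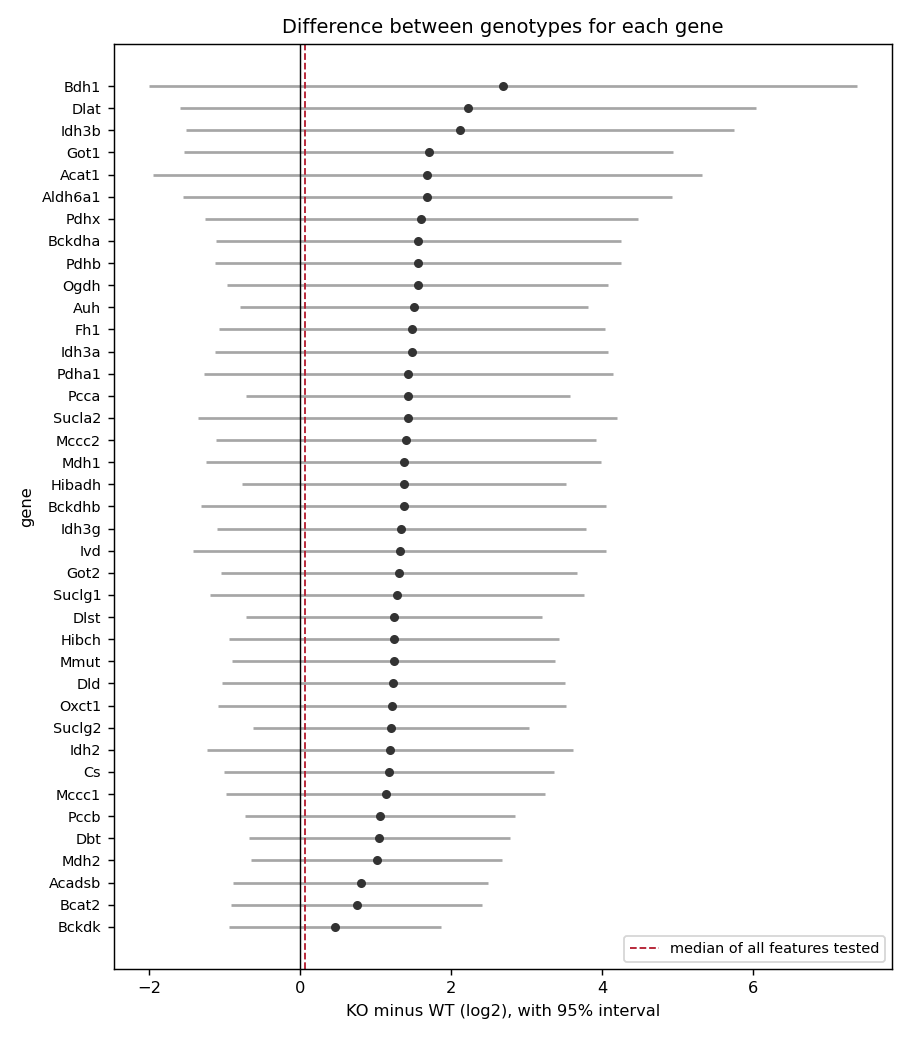
KO minus WT difference of each of the 39 genes (x axis, log2) with its 95% interval from limma, sorted by size, 2 arrays per genotype; the dashed line is the median of all 22931 features (0.07). All 39 points lie right of 0 and all 39 intervals hold 0.

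One order of the arrays held for every gene. KO replicate 4 was highest for all 39 (45.8% of all features) and WT replicate 1 lowest for all 39 (41.7% of all features), and KO replicate 3 lay under WT replicate 3 for all 39. This order was found for 22.3% of all features. The median level was 3.32 and 4.38 on the KO arrays, against 1.07 and 3.75 on the WT arrays. Within each genotype the replicates were far apart: KO replicate 4 exceeded KO replicate 3 by 0.40 to 1.58 (median 1.02), and WT replicate 3 exceeded WT replicate 1 by 1.08 to 5.06 (median 2.30). For all 39 genes the gap between the WT arrays was larger than the difference between the genotype means.

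**Figure D2:**
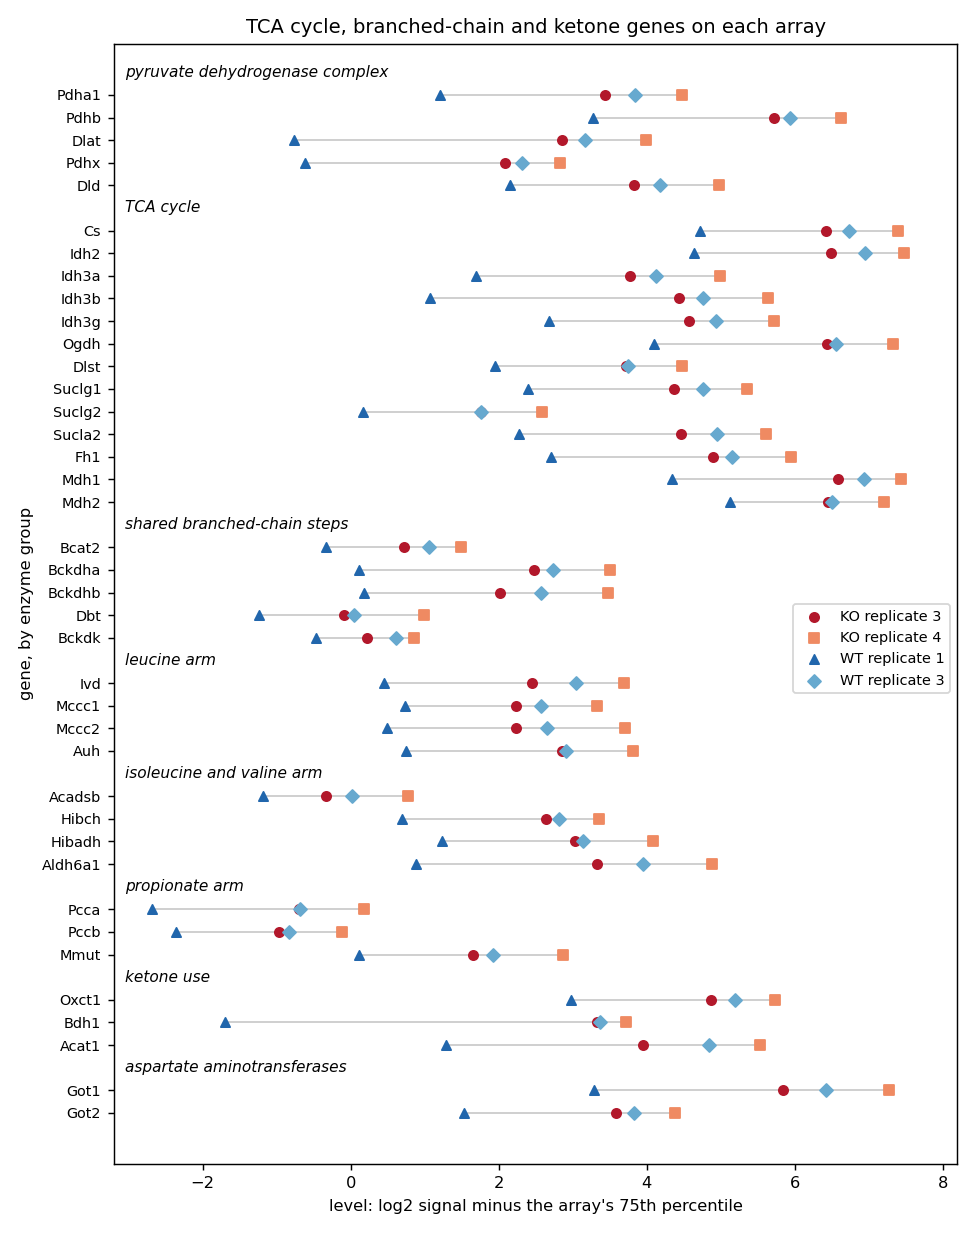
Level of each of the 39 genes (x axis, log2 signal minus the array's 75th percentile) on KO replicates 3 and 4 and WT replicates 1 and 3, grouped by enzyme. In every row WT replicate 1 is leftmost, KO replicate 4 rightmost, and KO replicate 3 lies just left of WT replicate 3 or under it.

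Leaving out single arrays moved the size of the difference and, for a few genes, its sign. Without WT replicate 1 the median of the 39 differences was 0.21, with a range of -0.092 to 0.43, and 37 of the 39 means remained higher in KO, where 57.5% of all features were higher. The exceptions were the thiolase Acat1 at -0.092 and Bckdk at -0.076. Between the arrays numbered 3 alone, KO minus WT was -0.88 to -0.005 over the 39 genes (median -0.32), below 0 for all of them, where 45.5% of all features were above 0. The median difference was 0.85 without KO replicate 4, 1.90 without KO replicate 3, and 2.47 without WT replicate 3. In that last fit, which sets both KO arrays against WT replicate 1, 37 of 39 genes had an unadjusted p under 0.05 in limma, where 18.5% of all features did. None of these passed after adjustment, with the smallest adjusted p at 0.133.

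**Figure D3:**
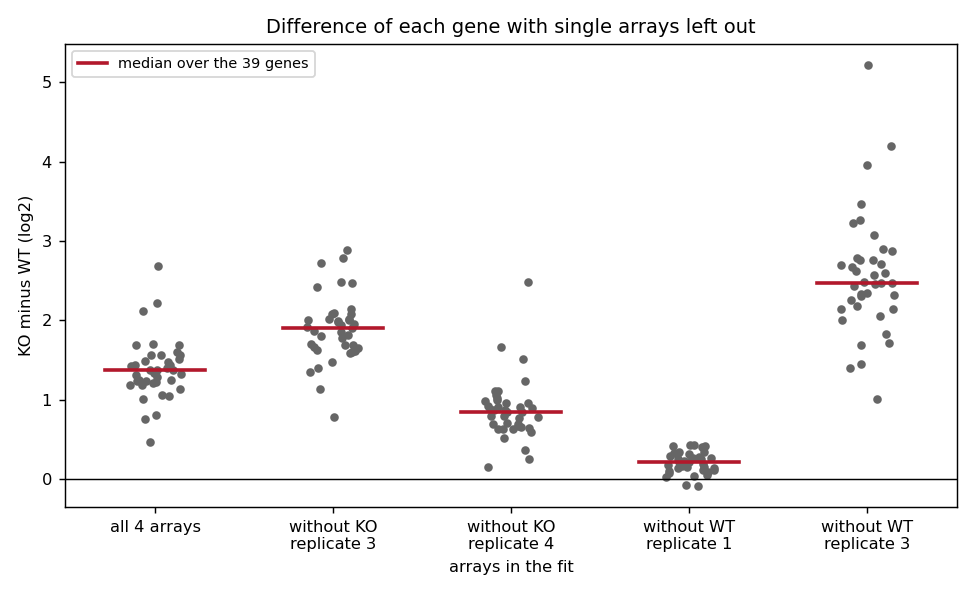
KO minus WT difference (y axis, log2) of each of the 39 genes (grey points, spread sideways for sight) with all 4 arrays and with each array left out; the red bar is the median. The medians are 1.37 with all arrays, 1.90 without KO replicate 3, 0.85 without KO replicate 4, 0.21 without WT replicate 1 and 2.47 without WT replicate 3.

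The pyruvate dehydrogenase complex turns pyruvate into acetyl-CoA. Its core acetyltransferase Dlat had levels of 2.86 and 3.98 on the KO arrays, against -0.77 and 3.17 on the WT arrays, a difference of 2.22 (SE 1.42). KO replicate 3 and WT replicate 3 lay within 0.31 of each other, and WT replicate 1 was far below the rest. Dld, the flavoprotein shared with the sister complexes, had levels of 3.83 and 4.98 in KO hearts, against 2.15 and 4.18 in WT hearts, a difference of 1.23 (SE 0.85). The subunits of the first enzyme, Pdha1 and Pdhb, differed by 1.44 and 1.56, and Pdhx, which anchors Dld to the core, by 1.61. The 2 probes of Pdhb gave 1.52 and 1.56, and those of Dld 1.23 and 1.43. The gap between the WT arrays was widest for Dlat, at 3.94, and narrowest for Dld, at 2.03. The differences of Dlat and Dld were 0.26 and 0.22 without WT replicate 1.

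Of the 13 TCA cycle genes, Idh3b, a regulatory subunit of the NAD-linked isocitrate dehydrogenase, had the largest difference, 2.12 (SE 1.35). Its levels were 4.43 and 5.65 on the KO arrays, against 1.07 and 4.77 on the WT arrays. The catalytic subunit Idh3a and the other regulatory subunit Idh3g differed by 1.48 and 1.34, and the NADP-linked Idh2 by 1.19. So within this one enzyme, the subunits shared their order of arrays and differed in how far WT replicate 1 lay below WT replicate 3, by 3.69 for Idh3b, 2.43 for Idh3a and 2.26 for Idh3g. Without WT replicate 1 the differences were 0.27 for Idh3b, 0.26 for Idh3a and 0.21 for Idh3g. Citrate synthase, Cs, which opens the cycle, differed by 1.18 (SE 0.81), and fumarase, Fh1, by 1.49.

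The 2-oxoglutarate dehydrogenase complex was measured by Ogdh and Dlst, which differed by 1.56 and 1.25. Ogdh had 3 probes that disagreed. The brightest, used here, read 6.44 and 7.34 in KO hearts, against 4.10 and 6.56 in WT hearts, and another probe gave a difference of 1.67. The remaining probe, A_55_P2006277, read 1.92 and 1.87 on the KO arrays, against 1.70 and 1.57 on the WT arrays, a difference of 0.26. On that probe both KO arrays lay above both WT arrays, and WT replicate 1 was not the lowest. The brightest probe gave 0.33 without WT replicate 1. Which part of Ogdh each probe reads was not determined here.

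Succinyl-CoA synthetase pairs the subunit Suclg1 with either Sucla2, which makes ATP, or Suclg2, which makes GTP. Sucla2 had levels of 4.46 and 5.61 in KO hearts, against 2.27 and 4.95 in WT hearts, a difference of 1.42 (SE 1.03). Suclg2 had 1.76 and 2.58 in KO hearts, against 0.17 and 1.76 in WT hearts, a difference of 1.20 (SE 0.68). Suclg2 had the smallest unadjusted p of the TCA cycle genes, 0.145 in limma, and its levels on the arrays numbered 3 were 0.005 apart. Suclg1 differed by 1.28. The difference was 0.083 for Sucla2 and 0.41 for Suclg2 without WT replicate 1.

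Malate dehydrogenase has a mitochondrial form, Mdh2, in the cycle and a cytosolic form, Mdh1, in the malate-aspartate shuttle that carries reducing power into mitochondria. Mdh2 had levels of 6.44 and 7.21 in KO hearts, against 5.12 and 6.51 in WT hearts, and its difference of 1.01 (SE 0.62) was the smallest of the TCA cycle group. Mdh1 had 6.59 and 7.44 in KO hearts, against 4.34 and 6.94 in WT hearts, a difference of 1.37 (SE 0.97). The aspartate aminotransferases serve the same shuttle. The cytosolic Got1 had 5.85 and 7.28 in KO hearts, against 3.29 and 6.43 in WT hearts, a difference of 1.70 (SE 1.21). The mitochondrial Got2 had 3.58 and 4.38 in KO hearts, against 1.53 and 3.83 in WT hearts, a difference of 1.31 (SE 0.88). In each pair WT replicate 1 lay further below WT replicate 3 for the cytosolic form, by 2.60 against 1.39 for malate dehydrogenase and by 3.14 against 2.30 for the aminotransferase. Set against WT replicate 3 alone, the KO means differed by 0.074 for Mdh1, 0.32 for Mdh2, 0.13 for Got1 and 0.16 for Got2.

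For 3 pairs of sister enzymes it was tested whether KO minus WT differed between the partners, from the log2 ratio of the partners on each array. Mdh1 exceeded Mdh2 by 0.36, Got1 exceeded Got2 by 0.40 and Sucla2 exceeded Suclg2 by 0.22 in this difference. Exact two-sided permutation tests with 2 arrays per genotype gave p = 1, 0.667 and 1, and 1 for each pair after adjustment over the 3. The smallest p this design allows is 0.33, so a difference between partners could not have been shown. The sign turned for all 3 pairs without WT replicate 1, to -0.24 for Mdh1 over Mdh2, -0.023 for Got1 over Got2 and -0.32 for Sucla2 over Suclg2.

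Leucine, isoleucine and valine share their opening steps. Bcat2, the mitochondrial aminotransferase that removes their amino group, differed by 0.75 (SE 0.62). The branched-chain dehydrogenase subunit Bckdha had levels of 2.48 and 3.50 in KO hearts, against 0.11 and 2.73 in WT hearts, a difference of 1.57 (SE 1.0), and its partner Bckdhb differed by 1.37. Dbt, the core of the complex, had -0.09 and 0.99 in KO hearts, against -1.24 and 0.04 in WT hearts, a difference of 1.05 (SE 0.64). Bckdk, the kinase that switches the complex off, had 0.22 and 0.86 in KO hearts, against -0.47 and 0.61 in WT hearts, a difference of 0.46 (SE 0.52). The KO arrays of Bckdk were 0.64 apart and its WT arrays 1.08, the narrowest WT gap of the 39. Without WT replicate 1 the differences were 0.26 for Bckdha, 0.41 for Dbt and -0.076 for Bckdk.

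In the leucine arm, Auh, the hydratase that acts on methylglutaconyl-CoA, had levels of 2.85 and 3.82 in KO hearts, against 0.74 and 2.91 in WT hearts, a difference of 1.51 (SE 0.86). The methylcrotonyl-CoA carboxylase subunit Mccc1 had 2.24 and 3.33 in KO hearts, against 0.73 and 2.57 in WT hearts, a difference of 1.14 (SE 0.79). Its partner Mccc2 differed by 1.40 and isovaleryl-CoA dehydrogenase, Ivd, by 1.32. The 4 genes of this arm thus lay within a narrow band, and their WT arrays were 1.84 to 2.59 apart. Against WT replicate 3 alone, Auh differed by 0.43 and Mccc1 by 0.22.

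The isoleucine and valine arm was more spread. Aldh6a1, which oxidises methylmalonate semialdehyde in valine breakdown, had 3.32 and 4.89 in KO hearts, against 0.88 and 3.96 in WT hearts, a difference of 1.68 (SE 1.21). Acadsb, the acyl-CoA dehydrogenase of the isoleucine path, had -0.33 and 0.77 in KO hearts, against -1.19 and 0.02 in WT hearts, a difference of 0.80 (SE 0.63). For Acadsb the gaps within the genotypes were close, 1.1 between the KO arrays and 1.20 between the WT arrays. Hibadh, a dehydrogenase of the valine path, had 3.03 and 4.08 in KO hearts, against 1.23 and 3.14 in WT hearts, a difference of 1.37 (SE 0.80), and the hydrolase Hibch differed by 1.24. Without WT replicate 1 the values were 0.15 for Aldh6a1, 0.20 for Acadsb and 0.42 for Hibadh.

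Propionyl-CoA, a product of isoleucine and valine, enters the TCA cycle through propionyl-CoA carboxylase and Mmut. The carboxylase subunit Pcca had levels of -0.70 and 0.18 in KO hearts, against -2.69 and -0.69 in WT hearts, a difference of 1.43 (SE 0.80) with the smallest unadjusted p of all 39 genes, 0.141 in limma. KO replicate 3 and WT replicate 3 were nearly level for Pcca, so the difference again came from WT replicate 1 and KO replicate 4. Pccb had -0.97 and -0.12 in KO hearts, against -2.37 and -0.83 in WT hearts, a difference of 1.05 (SE 0.67). The mutase Mmut differed by 1.24. Leaving out WT replicate 1 gave 0.43 for Pcca, the largest of the 39 in that comparison, and 0.29 for Pccb.

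Ketone bodies are oxidised by Bdh1, Oxct1 and Acat1 in turn. Bdh1, which oxidises 3-hydroxybutyrate, had levels of 3.32 and 3.72 on the KO arrays, against -1.70 and 3.36 on the WT arrays. Its difference of 2.69 (SE 1.74, 95% interval -2.0 to 7.37) was the largest of the 39 in size and in error. The other 3 of its 4 arrays lay within 0.40 of each other, so the mean difference rested on WT replicate 1, which was 5.06 below WT replicate 3. Leaving that array out gave 0.16. The 3 Bdh1 probes gave differences of 2.49, 2.69 and 3.44. The dimmest of them, A_52_P468343, was well above background on 3 of the arrays and read -6.65 on WT replicate 1, so its size there is uncertain.

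Oxct1, the transferase that commits ketone bodies to oxidation in tissues outside the liver, had 4.87 and 5.74 in KO hearts, against 2.98 and 5.19 in WT hearts, a difference of 1.22 (SE 0.86). Acat1, the mitochondrial thiolase that also serves isoleucine breakdown, had 3.96 and 5.54 in KO hearts, against 1.28 and 4.84 in WT hearts, a difference of 1.69 (SE 1.35). Acat1 had the widest gap between the KO arrays, 1.58, and the largest gap between the arrays numbered 3, with KO minus WT at -0.88. Leaving out WT replicate 1 gave 0.12 for Oxct1 and -0.092 for Acat1.

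**Figure D4:**
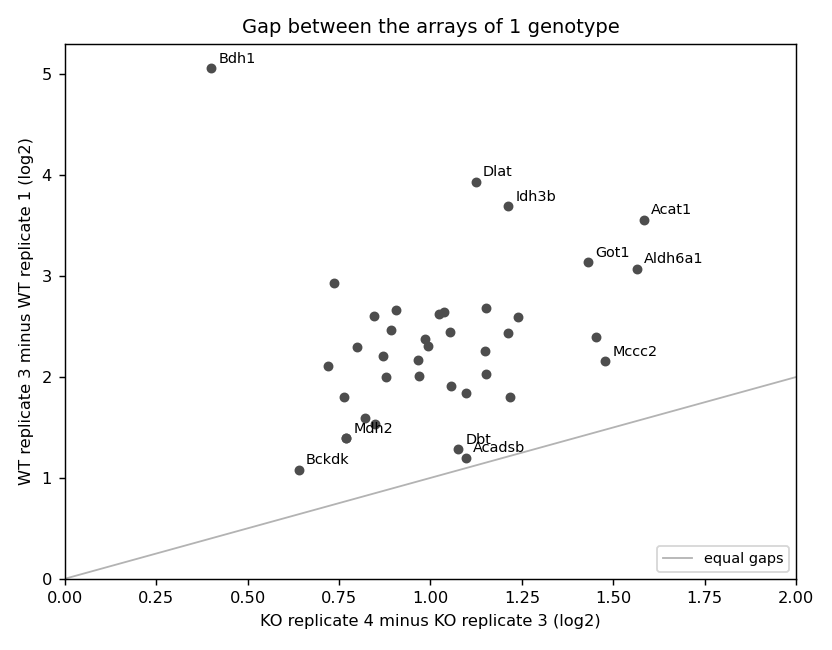
Gap between the WT arrays (y axis, replicate 3 minus replicate 1, log2) against the gap between the KO arrays (x axis, replicate 4 minus replicate 3, log2), 1 point per gene; the axes have different scales and the grey line marks equal gaps. All 39 genes lie above the line, from Acadsb closest to it (KO gap 1.1, WT gap 1.20) to Bdh1 farthest (KO gap 0.40, WT gap 5.06).

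Across the 39 genes the gap between the WT arrays and the gap between the KO arrays were weakly related (Pearson r 0.15, Spearman rho 0.31 over 39 genes measured on the same 4 arrays, given as a description). Bdh1 combined the widest WT gap with the narrowest KO gap.

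Of 25 further TCA cycle and pyruvate genes measured, 22 had a higher and 3 a lower mean in KO, with a median difference of 1.03, and 0 passed the test. The succinate dehydrogenase subunits Sdha, Sdhb, Sdhc and Sdhd differed by 1.21, 1.16, 0.97 and 1.18. The largest differences were those of the malic enzyme Me3 at 2.43 and the pyruvate dehydrogenase kinase Pdk2 at 2.37. The smallest were those of another such kinase, Pdk3, at -1.06 (SE 0.48) and of Me2 at -0.70. For Pdk3 both KO arrays (-2.52 and -3.31) lay below both WT arrays (-1.48 and -2.23), and 16.1% of all features lay so. Pdk4, the kinase isoform best known from fasting, had 3.47 and 4.04 in KO hearts, against 0.97 and 4.63 in WT hearts, with WT replicate 3 the highest. Leaving out WT replicate 1 gave a list median of 0.16, with 19 genes higher and 6 lower, and differences of 0.15 for Me3, 0.35 for Pdk2, -0.69 for Pdk3 and -0.28 for Me2. The sign turned for Pdk4, at 0.96 (log2) with all arrays and -0.88 without that array.

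Among 14 further branched-chain genes 11 had a higher and 3 a lower mean, with a median of 0.97, and 0 passed. Klf15, a transcription factor known to raise branched-chain catabolism genes in heart muscle, had the largest difference, 2.98 (SE 1.94), with levels of 1.69 and 3.95 in KO hearts, against -2.75 and 2.43 in WT hearts. Acadm, an acyl-CoA dehydrogenase also counted in the fatty acid oxidation list, followed at 2.02. Ppm1k, the phosphatase that counters Bckdk, differed by 1.90 (SE 1.35). The cytosolic aminotransferase Bcat1 had -2.68 and -4.00 in KO hearts, against -0.65 and -2.63 in WT hearts, a difference of -1.70 (SE 0.86), opposite in sign to its mitochondrial sister Bcat2 at 0.75. Slc25a44, which carries branched-chain amino acids into mitochondria, differed by -0.68 (SE 0.51). Leaving out WT replicate 1 gave a list median of 0.16, and 0.39 for Klf15, 0.22 for Acadm, 0.19 for Ppm1k, -0.71 for Bcat1 and -0.16 for Slc25a44.

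For 6 further ketone genes the median difference was 0.46, with 4 higher and 2 lower and 0 past the adjusted threshold. Slc16a7, a carrier of monocarboxylates such as ketone bodies, had 2.49 and 3.79 in KO hearts, against 0.69 and 1.94 in WT hearts, a difference of 1.83 (SE 0.68). Both KO arrays of Slc16a7 lay above both WT arrays, as for 18.3% of all features and 0 of the 39 genes. The smallest differences were those of Bdh2 at -1.09 and Aacs, which activates acetoacetate in the cytosol, at -0.74. Leaving out WT replicate 1 gave a list median of 0.10, and 1.20 for Slc16a7, -0.17 for Bdh2 and -0.096 for Aacs.

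Markers of cell types shared the array order of the 39 genes to different degrees. That order held for most ventricular cardiomyocyte markers, but for 0 of 11 macrophage, 0 of 10 fibroblast and 1 of 10 endothelial markers. The 16 ventricular cardiomyocyte markers had median levels of 6.39 and 7.17 on the KO arrays, against 2.15 and 6.58 on the WT arrays, and summed signals of 1295 and 2165 in KO hearts, against 179 and 1491 in WT hearts, in multiples of the array's 75th percentile. All 16 had a higher mean in KO (median difference 2.12), and 15 of the 16 had the same order of arrays as the 39 genes. The exception was Myh7, with 0.85 and 2.73 in KO hearts, against -2.03 and 3.37 in WT hearts. The 39 genes had summed signals of 872 and 1755 in KO hearts, against 216 and 1090 in WT hearts. The WT arrays were 4.28 apart in the median cardiomyocyte marker and 2.30 apart in the median of the 39 genes. Leaving out WT replicate 1, the cardiomyocyte markers had a median difference of 0.18, with 14 higher and 2 lower. The lower ones were Myh7 at -1.58 and Casq2 at -0.21.

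All 11 macrophage markers measured had a lower mean in KO, as did 10356 of all 22931 features. Their median levels were 2.71 and 0.79 in KO hearts, against 4.19 and 2.85 in WT hearts, with summed signals of 119 and 53.1, against 268 and 162. The differences were uneven, from -3.55 for Lgals3 to -0.027 for Itgam. Both KO arrays lay below both WT arrays for 6 of the 11, and for 16.1% of all features. Here 0 of the 11 had WT replicate 1 lowest. Their median difference was -1.37 with all arrays and -0.92 without WT replicate 1, where 8 were lower and 3 higher. The 10 fibroblast markers had medians of 6.22 and 3.44 in KO hearts, against 5.86 and 6.03 in WT hearts, with summed signals of 660 and 267, against 612 and 639. Of these fibroblast markers, 4 had a higher and 6 a lower mean in KO. Gene by gene, their KO replicate 4 minus KO replicate 3 had a median of -1.21, smaller in size than the gap between the list medians. The 10 endothelial markers had medians of 0.80 and 1.79 in KO hearts, against 1.13 and 1.33 in WT hearts, with summed signals of 87.5 and 88.9, against 57.9 and 79.3. Taken gene by gene, KO replicate 4 minus KO replicate 3 had a median of -0.12 for endothelial markers. The higher list median on KO replicate 4 was thus not the trend of the typical endothelial marker. The median difference was -0.39 for fibroblast and 0.31 for endothelial markers with all arrays, and -0.35 and 0.21 without WT replicate 1. All markers measured were well above background on all 4 arrays, apart from Erg, which was not on 1 of the WT arrays. In these whole-tissue samples fewer cells of a type and less RNA per cell cannot be told apart, and the part of cell makeup in the results was not tested.

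**Figure D5:**
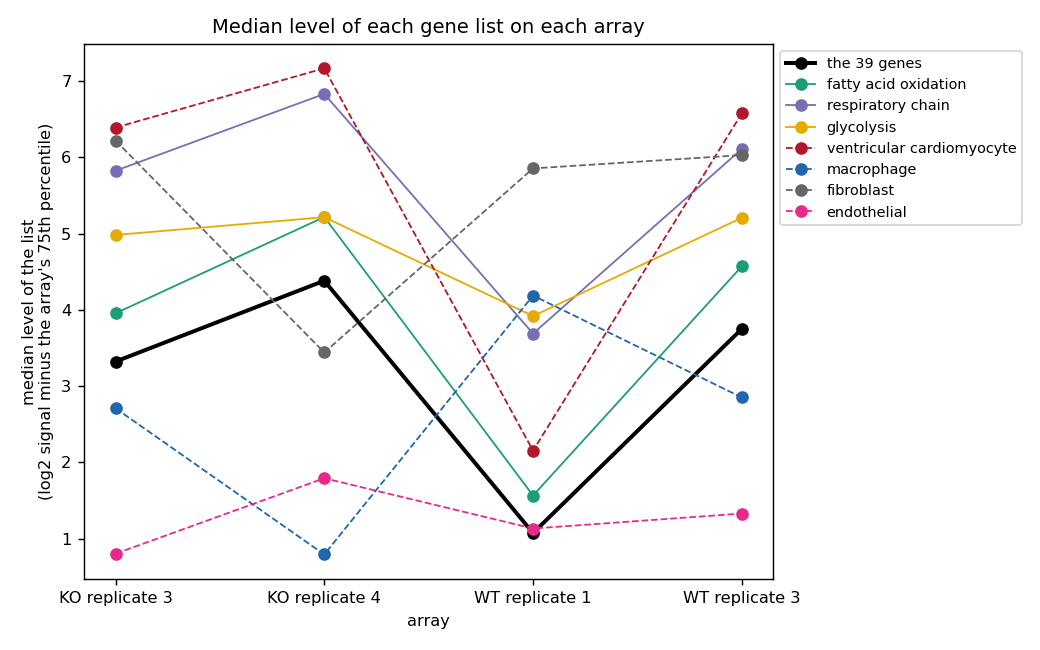
Median level (y axis, log2 signal minus the array's 75th percentile) of the 39 genes and of 7 other gene lists on each of the 4 arrays. The 39 genes (thick line) are highest on KO replicate 4 (4.38) and lowest on WT replicate 1 (1.07), as are the fatty acid oxidation, respiratory chain, glycolysis and cardiomyocyte lists, while macrophage markers are highest on WT replicate 1 (4.19).

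Set beside other energy pathways, the 39 genes had a median difference of 1.37, fatty acid oxidation genes 1.48 (18 genes, 17 with a higher mean), respiratory chain genes 1.29 (20 genes, all with a higher mean) and glycolysis genes 0.57 (17 genes, 14 with a higher mean). The glycolysis median covers a wide spread, from -0.86 for Pgam1 to 2.70 for Pgam2, with 3 genes lower and 4 at least 2-fold higher. The order of arrays seen for the 39 was found for 16 of 18 fatty acid oxidation genes, 20 of 20 respiratory chain genes and 10 of 17 glycolysis genes. The medians without WT replicate 1 were 0.21 for the 39 genes, 0.13 for fatty acid oxidation, 0.18 for the respiratory chain and 0.16 for glycolysis. Some lists share genes: Acadm and Echs1 are in both the further branched-chain and the fatty acid oxidation lists. Sdha and Sdhb are in both the further TCA cycle and the respiratory chain lists. No test between the lists was made, and nothing here sets the 39 genes apart from fatty acid oxidation or the respiratory chain.

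The promoters of the 39 genes were searched, as a description only, for the letters of motifs chosen in the plan. RefSeq promoters (build GRCm38.p6) were given for 35 of the 39, at 45 start sites, and the 250 bases before each start were read. The element of the estrogen-related receptors, TCAAGGTCA, was on either strand before 0 of the 35 genes and 0.324% of 12639 tested genes with a promoter. Its core AAGGTCA, which that element contains, was before 1 of the 35 (2.86%), against 3.88% of tested genes. The palindromic element of nuclear respiratory factor 1 was before 0 of the 35 and 1.51% of tested genes, and CCGGAAGTG, bound by GABP, before 0 of the 35 and 2.73% of tested genes. No match says only that these letters are not in this window. The median GC content was 58.5% for the 35 genes and 58.4% for tested genes.

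The promoters of Got1, which holds the core, and of Bdh1 and Bckdk, the genes of largest and smallest difference, are shown 5′ to 3′ on the strand of the gene, ending at the base before the start. Capitals mark the core. They lie at chr19:43524606-43524855 (minus strand), chr16:31422047-31422296 (plus strand, the upstream of 2 Bdh1 starts) and chr7:127903823-127904072 (plus strand).
Got1: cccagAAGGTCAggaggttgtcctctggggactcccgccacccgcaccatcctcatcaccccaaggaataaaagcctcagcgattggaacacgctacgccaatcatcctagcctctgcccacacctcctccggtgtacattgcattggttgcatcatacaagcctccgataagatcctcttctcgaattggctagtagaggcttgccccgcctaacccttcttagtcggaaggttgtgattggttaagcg
Bdh1: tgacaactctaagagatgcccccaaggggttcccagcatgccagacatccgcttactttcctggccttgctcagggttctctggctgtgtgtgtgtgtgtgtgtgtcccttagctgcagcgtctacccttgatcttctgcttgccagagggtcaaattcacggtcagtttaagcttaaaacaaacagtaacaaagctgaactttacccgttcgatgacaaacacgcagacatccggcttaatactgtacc
Bckdk: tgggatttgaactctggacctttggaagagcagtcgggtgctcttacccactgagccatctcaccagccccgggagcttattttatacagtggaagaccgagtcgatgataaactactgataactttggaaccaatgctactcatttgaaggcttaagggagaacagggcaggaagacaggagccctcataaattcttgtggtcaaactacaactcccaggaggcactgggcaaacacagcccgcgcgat
In Got1 the core stands at position -245, counted back from the start. The Bdh1 and Bckdk windows hold none of the motifs searched.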

How the data were processed

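RNA from infarcted hearts, 2 KO and 2 WT samples, was measured on 1-colour Agilent mouse arrays. Groups came from the titles, as did the digit after the genotype that is used here as the replicate number. The RNA was prepared with Trizol, then amplified and labelled with Cy3, per the labels' protocols. Images were quantified in Feature Extraction 11.0.1.1, per the file headers, whereas version 9.1 of Agilent Feature Extraction is given per the submitters' processing notes. The intensity used is the deposited processed signal, from which background and spatial trend had been removed per the file headers. Other deposited columns (spot flags) marked outliers and signal above background. The authors' table of log2 values, whose 4 columns have alike quantiles through an unstated step, was an alternative.

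Spots of controls and outliers were removed, and repeat spots of a probe were averaged as log2 values. No spot was saturated. Each array's 75th percentile was then taken off its log2 signals. A probe was kept if at least 2 of the 4 arrays had it well above background, and the probe of highest mean stood for a gene. The RefSeq accessions of 27234 of the 39429 probes matched the GRCm38.p6 table and gave 20659 genes; the rest were tested under the array's identifier. For 6 features, none of them among the 39 genes, an array was dropped from the fit. Probes are given without coordinates, since their grid is of the mm9 build.

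The genotypes were compared in R 4.3.3 with limma 3.58.1 (lmFit, eBayes). Two-sided p-values were adjusted by Benjamini-Hochberg for the 22931 features, with calls at 0.05. The code was tested on simulated data with the same small spread on every array. That check does not show how the fit performs on arrays as uneven as these. The 39 genes and the other lists were chosen with earlier results of these data known, so counts and medians over a list are descriptions. Every one of the 39 is named. Array values are given for the largest and smallest difference and the smallest p of each enzyme group, the sister enzymes and the ketone genes. Further pathway genes were named for the largest and smallest differences of their list; the Sdh subunits, Pdk4 and Ppm1k were chosen after their values were seen. Alternatives were other scalings, background corrections, probe filters and probe summaries, eBayes with trend and robust options, a common floor under dim signals, a threshold of 0.1, and each array left out. Normexp was planned on mean signals, which the files do not hold, so, after seeing the data, median signals were used with an offset of 50. Some genes of the further pathway lists are not reported here by name.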

Additional observations from a re-analysis of the deposited data

How the results depend on the processing

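The count of features past the adjusted threshold was 0 with all 4 arrays and in every alternative, including a threshold of 0.1. In limma, 633 features had an unadjusted p under 0.05 with all arrays, 4251 without WT replicate 3, 1314 without KO replicate 3, 379 without WT replicate 1 and 167 without KO replicate 4. All 39 genes had a higher mean in KO under each of the 9 alternatives that kept all arrays and changed the values, the filter or the fit, with medians of 1.26 (median scaling) to 1.37. These alternatives left 43.3% (no filter) to 62.0% (normexp) of all features higher in KO. The median difference of all features was -0.12 without a filter, -0.04 with median scaling and 0.14 with normexp, against 0.07 with the settings reported. With 1 array left out the median over the 39 genes was 0.21 to 2.47, and 37 to 39 were higher. Without WT replicate 1 the sign turned for Bckdk (-0.076) and Acat1 (-0.092), whose values with 1 array left out reached 1.01 and 3.46 without WT replicate 3. By construction the fit without WT replicate 1 sets both KO arrays against WT replicate 3 alone, which is assumed to vary like the KO group. The same fit, computed for the pairs and further genes after seeing the data, turned the sign of the 3 sister pairs and of Pdk4. S1pr1 differed by -3.45 to -2.68 over all alternatives. No paired analysis was possible because the titles record no pairing of KO with WT samples, and the genotypes share only 1 replicate number. The number of arrays, and the smaller share of probes well above background on WT replicate 1, limit what could be detected.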
